A study of Mus musculus with 24 samples.

Results

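The amino acid transporter genes described here are 60 genes of 7 solute carrier families (*Slc1*, *Slc3*, *Slc6*, *Slc7*, *Slc36*, *Slc38* and *Slc43*). They were chosen by gene symbol, without the antisense forms and without the imprinted gene *Slc38a4*, when earlier results of these data were known. Of the 35022 genes in the counts of the PD03 removal experiment 59 were members, and of the 48709 genes in those of CHIRON removal 60 were. RNA of E14 mouse embryonic stem cells (mESCs, an established wild-type line with the strain label 129m) was sequenced on soft and stiff StemBond hydrogels coated with fibronectin. In both experiments the cells spent 12 h in 2i + LIF, with the MEK inhibitor PD03 at 1 µM, which lowers ERK activity, and the GSK3 inhibitor CHIRON at 3 µM, which stabilises β-catenin. RNA was collected in that medium (0 h) and at 2 h and 12 h after 1 inhibitor was removed. PD03 removal left CHIRON + LIF and CHIRON removal left PD03 + LIF, so LIF was present in every group and no group received a medium change without a removal. Each group of substrate and time had 2 replicate libraries, except stiff at 2 h of CHIRON removal, which had 1 after the library with 171333 counts was left out. The paper's captions describe these experiments as done in triplicate, whereas the counts hold 2 replicates per group. The sources do not say whether replicates were separate cultures, so p-values measure the spread between these libraries, which may be technical.

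Amino acid transporters move amino acids and related small molecules across the plasma membrane and the lysosomal membrane, and many are exchangers that trade an amino acid inside the cell for another outside. Several members of the *Slc7* family are light chains, which reach the cell surface bound to a heavy chain encoded by *Slc3a2* or *Slc3a1*. In mESCs, amino acid supply is tied to growth and to the methyl groups used on chromatin, and naïve cells depend on threonine and on exogenous glutamine to a degree set by the culture medium. Not every member carries amino acids: the *Slc6* family also holds carriers of creatine, taurine, betaine and monoamines.

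Total counts were between 16222196 and 26442153 in the 12 libraries of PD03 removal and between 19393787 and 31111260 in the 11 libraries of CHIRON removal. After the filter on low counts 36 members were tested among 13424 protein-coding genes in PD03 removal and 46 among 14615 in CHIRON removal. Replicates varied more in CHIRON removal, where the biological coefficient of variation was 0.0797 against 0.0386. This spread was uneven. Between replicates of CHIRON removal, chi-square per degree of freedom over genes was 58.5 for soft at 12 h and 23.2 for stiff at 0 h. In its other groups with 2 libraries it was between 5.87 and 10.3. The fit shared its estimates of spread over all groups. The ERK targets *Dusp6* and *Spry4* rose at 12 h on both substrates after PD03 removal, with log2 fold changes of 1.13 and 1.33 and of 2.34 and 2.39, and the β-catenin target *Axin2* had log2 fold changes of −2.65 and −2.58 after CHIRON removal. *Spry4* was also lower at 12 h of CHIRON removal, with PD03 still present. It went from 44.6 and 38.3 to 6.11 and 10.6 CPM on soft substrates. On stiff substrates it went from 46.8 and 49.8 to 10.7 and 7.30 CPM. *Dusp6* went from 16.6 and 16.2 to 10.0 and 11.1 CPM on soft and from 18.2 and 17.6 to 15.8 and 13.7 CPM on stiff substrates. The 5 embryonic stem cell markers (*Pou5f1*, *Sox2*, *Nanog*, *Esrrb* and *Zfp42*) were summed in CPM (normalised counts, scaled to library size). Their sum was between 4165 and 4342 CPM at 0 h and between 3735 and 3887 at 12 h of PD03 removal. In CHIRON removal this sum moved the other way, from between 3413 and 3590 CPM at 0 h to between 3925 and 4132 at 12 h. Neither experiment's ranges overlapped. In PD03 removal *Nanog*, *Sox2* and *Zfp42* were lower in every 12 h library than in any 0 h library. *Nanog* went from 1074 and 1104 to 810 and 860 CPM on soft and from 1131 and 1131 to 787 and 763 CPM on stiff substrates. The *Esrrb* and *Pou5f1* libraries at 0 h and 12 h overlapped on each substrate. In CHIRON removal *Nanog*, *Pou5f1*, *Sox2* and *Zfp42* were higher at 12 h, whereas *Esrrb* was lower. *Esrrb* went from 1059 and 1094 to 845 and 907 CPM on soft substrates. On stiff substrates it went from 1053 and 1079 to 920 and 874 CPM. The 6 fibroblast markers summed to at most 6.78 CPM in every library. The 6 trophectoderm markers summed to between 63.5 and 68.2 CPM at 0 h and between 68.4 and 75.9 at 12 h of PD03 removal. In CHIRON removal the sum was between 76.4 and 80.8, then between 82.0 and 90.9. These sums hide opposite moves, and *Tfap2c* was their largest part in every library. On stiff substrates of PD03 removal *Eomes* rose from 4.22 and 4.61 to 20.7 and 18.5 CPM at 12 h. *Tfap2c* fell there from 44.0 and 45.0 to 34.4 and 32.4 CPM. In CHIRON removal *Gata3* rose on stiff substrates from 6.84 and 7.77 to 16.7 and 24.4 CPM. *Cdx2* fell there from 6.67 and 3.97 to 0.0513 and 0.0533 CPM. On soft substrates these genes moved the same ways. The 6 primitive endoderm markers summed to between 3.35 and 5.35 CPM in PD03 removal and to between 12.0 and 17.3 in CHIRON removal. This sum hides opposite moves as well, at low levels. In PD03 removal *Gata6* went from between 0.460 and 1.13 CPM at 0 h to between 1.57 and 1.80 at 12 h. *Dab2* went from between 0.455 and 1.15 to between 0.165 and 0.687 CPM. *Elf5* and *Krt7* among the trophectoderm markers, *Sox7* among the primitive endoderm markers, and *Col3a1* and *Dcn* among the fibroblast markers stayed under 1 CPM in every library, and the part of other cells in the results below was not tested. In bulk RNA, fewer cells of a type and less RNA per cell cannot be told apart.

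To order the transporters by level in 2i + LIF, CPM were divided by the exon length of each gene (FPKM). In the 4 libraries at 0 h of PD03 removal, *Slc7a3*, a carrier of arginine and lysine, had the highest level, 43.9 FPKM ± 1.71 (SD, n = 4). The heavy chain gene *Slc3a2* followed at 38.6 ± 1.43 (SD, n = 4), then the creatine carrier gene *Slc6a8* at 38.3 ± 0.891 and the large neutral amino acid exchanger gene *Slc7a5* at 37.5 ± 2.19. The ranges of these last 3 overlapped, whereas the lowest *Slc7a3* library was above all of them. *Slc7a7*, whose product exports arginine and lysine in exchange for neutral amino acids, held rank 18 at 3.72 ± 0.763 FPKM. In the 4 libraries at 0 h of CHIRON removal the order began with *Slc7a5* at 166.8 FPKM ± 4.46 (SD, n = 4), *Slc3a2* at 84.7 ± 2.32, *Slc6a8* at 65.6 ± 1.36 and the taurine carrier gene *Slc6a6* at 43.5 ± 2.23, with no overlap between neighbours. *Slc7a3* held rank 9 at 16.9 ± 0.514 FPKM and *Slc7a7* rank 21 at 1.30 ± 0.095. At 0 h 9 members reached a mean of 100 CPM in PD03 removal and 8 in CHIRON removal, and 26 members stayed under 1 CPM in each.

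**Figure D1:**
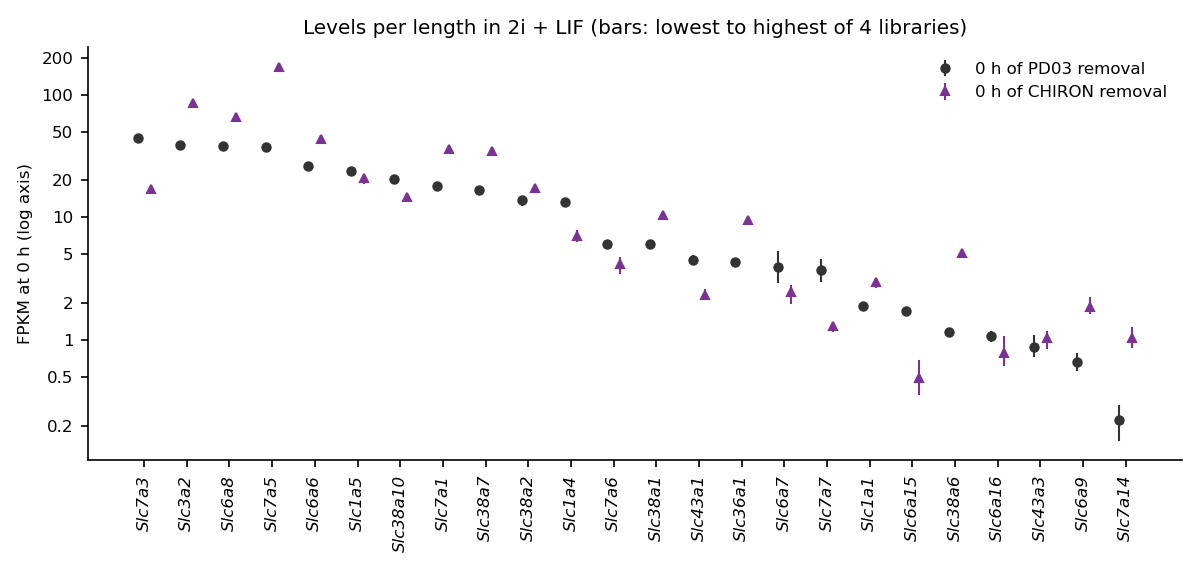
Level per exon length (FPKM, log axis) of 24 members that reached 1 FPKM at 0 h in either experiment, ordered by PD03 removal; points are means of 4 libraries (soft and stiff) and bars run from the lowest to the highest library. *Slc7a5* stood at 37.5 FPKM in one experiment and 166.8 in the other, although both were in 2i + LIF.

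The levels at 0 h differed between the experiments although the medium was the same. On a common scale for both experiments, *Slc7a5* had a mean of 128 CPM at 0 h of PD03 removal and 675 CPM at 0 h of CHIRON removal, and *Slc3a2* had 126 and 326 CPM. *Slc7a3* went the other way, with 154 against 69.9 CPM. Of the 46 members tested on this scale 24 differed more than 2-fold, and of all 14764 genes 5218 did. Among genes with a mean of at least 10 CPM these numbers were 10 of 19 members and 2586 of 8984 genes. What set the experiments apart at 0 h was not tested, and the responses below were measured against the 0 h libraries of the same experiment.

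After PD03 removal the transporters changed in both directions, with more rises than falls. The light chain gene *Slc7a7* rose on both substrates, by log2 fold changes of 1.77 and 1.95, and its heavy chain gene *Slc3a2* rose less, by 0.31 and 0.39. At 12 h on soft substrates 10 of the 36 tested members rose, against 14.1% of all 13424 genes, and 5 fell, against 15.3% (quasi-likelihood test of edgeR, Benjamini-Hochberg adjusted p under 0.05). On stiff substrates 14 rose, against 18.5% of all genes, and 3 fell, against 19.9%. The same 10 members rose on both substrates, among them *Slc1a3*, *Slc1a5*, *Slc3a2*, *Slc6a16*, *Slc7a3*, *Slc7a5*, *Slc7a7*, *Slc38a2* and *Slc38a8*, and 2 fell on both, *Slc1a1* and *Slc6a8*. The median log2 fold change of the tested members was 0.086 on soft and 0.061 on stiff substrates, against −0.0014 for all genes on each. In 10 alternative settings for each substrate, including leaving out each library, the calls of 6 members held throughout on soft substrates (among them *Slc1a1*, *Slc3a2*, *Slc7a7*, *Slc38a2* and *Slc38a8*) and those of 8 on stiff substrates (among them *Slc1a1*, *Slc3a2*, *Slc6a7*, *Slc6a16*, *Slc7a3*, *Slc7a7* and *Slc38a2*).

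**Figure D2:**
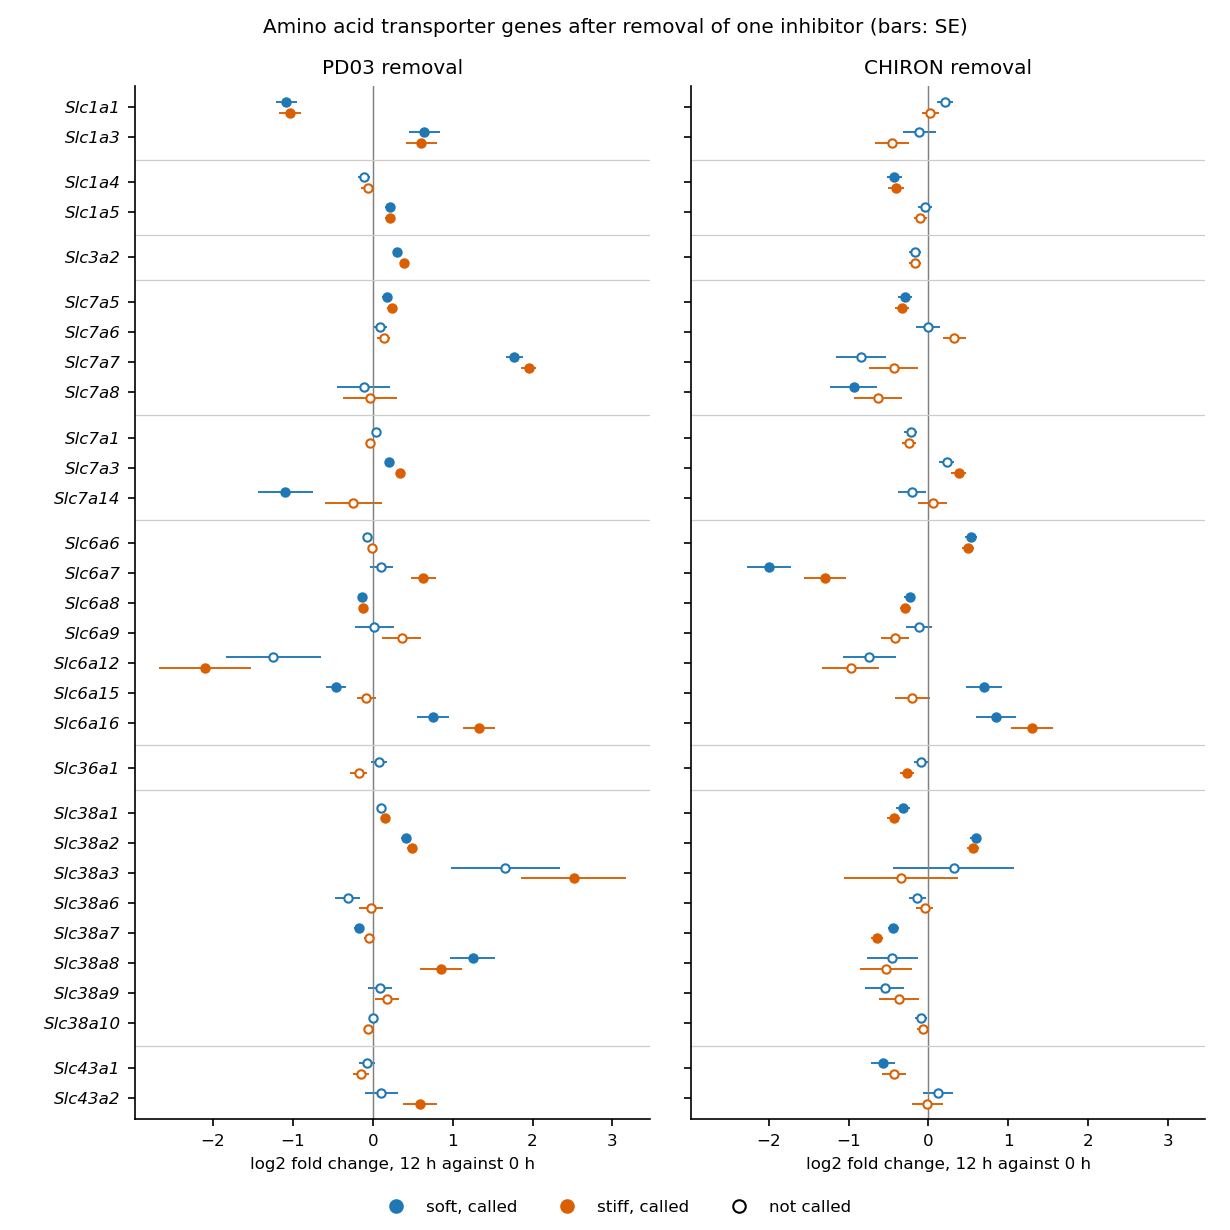
Log2 fold change at 12 h against 0 h (x axis) of 30 members, grouped by role (grey lines), after PD03 removal (left) and CHIRON removal (right); bars are standard errors, filled points passed an adjusted p of 0.05 and open points did not. *Slc7a7* lies at 1.77 and 1.95 on the left and at −0.84 and −0.43, not called, on the right.

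Among the light chain genes, *Slc7a7* (chromosome 14, 54369442 to 54417780 of GRCm38, minus strand) had 10.5 and 9.95 CPM in the 2 soft libraries at 0 h and 33.1 and 36.7 CPM at 12 h of PD03 removal. On stiff substrates it had 15.2 and 13.7 CPM at 0 h and 53.4 and 57.9 CPM at 12 h. Every 12 h library was above every 0 h library, and every stiff library at 12 h was above both soft libraries. The log2 fold changes were 1.77 on soft (standard error, SE, 0.11, adjusted p = 4.6e-13) and 1.95 on stiff substrates (SE 0.098, adjusted p = 2.8e-15, edgeR's quasi-likelihood test). Per exon length, *Slc7a7* went from 3.16 and 3.00 FPKM to 9.97 and 11.1 FPKM on soft substrates, whereas *Slc7a6*, the light chain gene with the closest transport function, was at 5.75 and 5.82 FPKM and then at 6.23 and 6.12. On stiff substrates *Slc7a7* went from 4.58 and 4.13 to 16.1 and 17.5 FPKM, and *Slc7a6* from 6.44 and 6.17 to 6.98 and 6.85. *Slc7a7* was thus the lower of the pair at 0 h and the higher at 12 h in every library. The log2 fold changes of *Slc7a6* were 0.094 and 0.14 (adjusted p = 0.44 and 0.21, edgeR). An exon stretch of *Slc7a7* amounting to 7% of its exon length overlaps *Oxa1l* on the opposite strand, whose log2 fold changes were 0.22 and 0.19, and whether counting used strand was not stated.

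*Slc7a5* encodes the light chain that imports leucine and other large neutral amino acids. It had 135 and 148 CPM on soft substrates at 0 h and 149 and 171 CPM at 12 h. The stiff libraries had 130 and 143 CPM and then 158 and 166 CPM. The soft libraries at 12 h were above those at 0 h by a small margin, with a log2 fold change of 0.18 (SE 0.062, adjusted p = 0.028, edgeR). It was not called without the soft 12 h replicate 2 (0.08, adjusted p = 0.49) or the soft 0 h replicate 1 (0.12, adjusted p = 0.29). On stiff substrates the change was 0.25 (SE 0.063, adjusted p = 0.0025, edgeR), and it was 0.18 without the stiff 0 h replicate 1 (adjusted p = 0.066). *Slc7a11*, which encodes the cystine and glutamate exchanger, stayed between 0.159 and 1.43 CPM, with log2 fold changes of 0.38 and 0.29 (SE 0.63 each). Of the 10 light chain genes 6 were tested in PD03 removal. At 12 h 2 rose on each substrate, against 14.1% of all genes on soft and 18.5% on stiff substrates, and none fell, against 15.3% and 19.9%.

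The heavy chain gene *Slc3a2* (chromosome 19, 8706882 to 8723369 of GRCm38, minus strand) had 129 and 138 CPM on soft substrates at 0 h and 164 and 166 CPM at 12 h. The stiff libraries had 141 and 137 CPM at 0 h and 184 and 181 CPM at 12 h. No 12 h library overlapped one at 0 h. Its log2 fold changes were 0.31 (SE 0.049, adjusted p = 2.2e-05) and 0.39 (SE 0.049, adjusted p = 2.6e-07, edgeR's quasi-likelihood test). The other heavy chain gene, *Slc3a1*, had at most 5 counts in a library and was not tested.

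The sequences around annotated starts of *Slc7a7*, of its partner *Slc3a2* and of *Slc6a16*, the members that rose on both substrates at 12 h of PD03 removal and whose windows held a searched motif, are given from RefSeq on GRCm38.p6, 250 bases before to 50 after an annotated start. The motifs searched on both strands were TGATGNAAT (1 form of the element bound by ATF4), TGANTCA (AP-1), CACGTG (E-box) and CTTTGA (TCF/LEF), and capitals mark the matches. Other forms of the ATF4 element were not searched. The stretches tgatgcaac and tgatgaaag in the *Slc7a7* window differ from TGATGNAAT only in the last base and were not marked. *Slc7a7* has 5 such windows, of which 1 held a match, at chr14:54417895-54418194 on the minus strand, and this window lies upstream of the gene as GENCODE M21 annotates it. The window of *Slc3a2* is chr19:8713848-8714147 on the minus strand, and its start lies 9472 bases inside the gene as GENCODE M21 annotates it, so the sequence belongs to an internal start. The window of *Slc6a16* is chr7:45240503-45240802 on the plus strand, upstream of the gene in GENCODE M21, and it holds CTTTGA on the reverse strand and an E-box closer to the start.
Slc7a7: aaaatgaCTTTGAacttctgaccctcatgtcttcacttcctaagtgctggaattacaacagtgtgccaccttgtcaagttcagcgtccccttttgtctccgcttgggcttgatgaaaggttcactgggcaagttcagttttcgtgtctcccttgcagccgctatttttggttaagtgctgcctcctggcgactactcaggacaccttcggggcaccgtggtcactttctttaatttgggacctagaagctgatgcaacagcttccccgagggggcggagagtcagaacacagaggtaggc
Slc3a2: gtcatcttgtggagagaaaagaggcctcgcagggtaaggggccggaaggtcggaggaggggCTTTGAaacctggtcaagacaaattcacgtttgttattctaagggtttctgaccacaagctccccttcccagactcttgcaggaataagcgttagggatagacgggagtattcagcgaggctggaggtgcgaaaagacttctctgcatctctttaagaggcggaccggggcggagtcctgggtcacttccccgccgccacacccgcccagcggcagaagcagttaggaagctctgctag
Slc6a16: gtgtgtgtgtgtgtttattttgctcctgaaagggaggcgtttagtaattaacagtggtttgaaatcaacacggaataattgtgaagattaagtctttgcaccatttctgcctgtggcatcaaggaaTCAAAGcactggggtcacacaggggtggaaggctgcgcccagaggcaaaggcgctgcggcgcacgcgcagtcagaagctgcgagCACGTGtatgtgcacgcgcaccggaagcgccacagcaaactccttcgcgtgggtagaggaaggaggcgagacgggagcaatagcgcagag

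RefSeq windows were found for 42 of the 60 members, 61 windows in all. CTTTGA was in 11 of these 61 and in 16.0% of all 32851 windows, CACGTG was in 9 and in 7.15%, and TGANTCA was in 9 and in 7.81%. TGATGNAAT was in 1 of them, a window of *Slc6a21*, and in 0.965% of all windows. A match is a description of these letters and no binding was measured.

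Among the cationic amino acid transporters, *Slc7a3* rose on both substrates. It had 165 and 175 CPM on soft substrates at 0 h and 194 and 196 CPM at 12 h. Stiff libraries had 166 and 159 CPM and then 210 and 200 CPM, without overlap. These were log2 fold changes of 0.20 (SE 0.049, adjusted p = 0.0023) and 0.34 (SE 0.049, adjusted p = 3.1e-06, edgeR). The former was 0.16 without the soft 0 h replicate 1 (adjusted p = 0.054). *Slc7a1*, which encodes the widely expressed carrier of arginine and lysine, stayed between 204 and 233 CPM over all 12 libraries. *Slc7a14*, a lysosomal relative, fell on soft substrates by 1.10 on the log2 scale (SE 0.34, adjusted p = 0.016, edgeR). The call was lost without the soft 0 h replicate 1 (−0.88, adjusted p = 0.15) and without either soft 12 h library (adjusted p = 0.086 and 0.070). On stiff substrates its log2 fold change was −0.24, which was not called.

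The glutamate and aspartate transporters moved in opposite directions. *Slc1a1* (chromosome 19, 28835049 to 28913960), which encodes a high-affinity glutamate and cysteine importer, had 15.5 and 16.7 CPM on soft substrates at 0 h and 7.15 and 8.01 CPM at 12 h. On stiff substrates it had 15.1 and 15.2 CPM at 0 h and 6.91 and 7.91 CPM at 12 h. All 12 h libraries were below all 0 h and 2 h libraries, and the log2 fold changes were −1.08 (SE 0.13, adjusted p = 2.0e-07) and −1.03 (SE 0.13, adjusted p = 4.7e-07, edgeR). *Slc1a3*, which encodes the glial type of glutamate importer, rose from 4.66 and 4.12 to 6.46 and 7.29 CPM on soft and from 5.19 and 4.95 to 7.70 and 7.75 CPM on stiff substrates. These were log2 fold changes of 0.65 (adjusted p = 0.014) and 0.61 (adjusted p = 0.0125, edgeR). Leaving out the 0 h or the 12 h replicate 2 ended the call on soft substrates (adjusted p = 0.099 and 0.11), and leaving out the 0 h replicate 2 or either 12 h library ended that on stiff substrates (adjusted p from 0.058 to 0.081). An exon stretch of 31.9% of the length of *Slc1a1* overlaps *4430402I18Rik* on the opposite strand, which was under the filter in PD03 removal. *Slc1a2*, *Slc1a6* and *Slc1a7* never exceeded 5 counts and were not tested.

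Of the 2 exchangers of small neutral amino acids, *Slc1a5*, which imports glutamine, rose and *Slc1a4*, which carries alanine and serine, had log2 fold changes of −0.11 and −0.07 and was not called. *Slc1a5* had 96.5 and 98.9 CPM on soft substrates at 0 h and 109 and 117 CPM at 12 h. The stiff libraries had 100 and 103 CPM and then 123 and 112 CPM. Both log2 fold changes were 0.21 (SE 0.056, adjusted p = 0.0050 and 0.0040, edgeR). Without the soft 12 h replicate 2 the change was 0.16 (adjusted p = 0.096), and without the stiff 12 h replicate 1 it was 0.14 (adjusted p = 0.14).

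Among the 8 tested sodium-coupled neutral carriers of the *Slc38* family, 2 rose and 1 fell on soft substrates, where 14.1% and 15.3% of all genes did, and 4 rose on stiff substrates, where 18.5% did. *Slc38a2* (chromosome 15, 96687392 to 96699730), a carrier of alanine and glutamine that cells adjust to amino acid supply, had 128 and 126 CPM on soft substrates at 0 h, 120 and 108 CPM at 2 h and 175 and 163 CPM at 12 h. The stiff libraries had 127 and 110, then 108 and 111, then 173 and 156 CPM. The 12 h libraries were above all others, with log2 fold changes of 0.41 (SE 0.062, adjusted p = 9.2e-06) and 0.49 (SE 0.063, adjusted p = 4.7e-07, edgeR). *Slc38a8* rose from 1.67 and 1.20 to 3.85 and 3.06 CPM on soft substrates and from 1.95 and 2.11 to 3.89 and 3.46 CPM on stiff substrates. Its changes were 1.25 (adjusted p = 0.0011) and 0.85 (adjusted p = 0.011, edgeR). The latter was 0.76 without the stiff 12 h replicate 1 (adjusted p = 0.092) and 0.80 without the stiff 0 h replicate 1 (adjusted p = 0.053). *Slc38a3*, a glutamine carrier, had 1 and 9 counts on stiff substrates at 0 h and 18 and 24 counts at 12 h, a log2 fold change of 2.52 (SE 0.66, adjusted p = 0.0033, edgeR) that lost its call without the stiff 0 h replicate 1 or the stiff 12 h replicate 2 (adjusted p = 0.051 each). On soft substrates it went from 3 and 8 counts to 12 and 20, and the log2 fold change of 1.66 was not called (adjusted p = 0.068, edgeR). *Slc38a1* rose by 0.16 on stiff substrates and *Slc38a7*, which carries glutamine out of lysosomes, fell by 0.17 on soft substrates, and both calls were lost without any 1 of the 4 libraries compared (adjusted p from 0.081 to 0.17).

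Among the 8 tested *Slc6* genes, 2 rose and 2 fell on soft substrates, where 14.1% and 15.3% of all genes did, and 3 rose and 2 fell on stiff substrates, where 18.5% and 19.9% did. *Slc6a16*, whose substrate is not established, rose from 3.33 and 3.61 to 6.73 and 5.01 CPM on soft substrates and from 3.18 and 2.94 to 7.05 and 8.32 CPM on stiff substrates. Its log2 fold changes were 0.76 (adjusted p = 0.0058) and 1.33 (adjusted p = 6.1e-06, edgeR), and the former was 0.53 without the soft 12 h replicate 1 (adjusted p = 0.13) and 0.70 without the soft 0 h replicate 1 (adjusted p = 0.050).

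The other *Slc6* calls described here were smaller or were made on 1 substrate. The creatine carrier gene *Slc6a8* fell by 0.14 on soft and 0.12 on stiff substrates on the log2 scale (SE 0.047 and 0.048, adjusted p = 0.025 and 0.047, edgeR). DESeq2 called neither (adjusted p = 0.053 and 0.10), and leaving out the soft 0 h replicate 2, either soft 12 h library or any of the 4 stiff libraries compared ended the call (adjusted p from 0.072 to 0.24). The proline carrier gene *Slc6a7* had 18.3 and 13.8 CPM on soft substrates at 0 h and 18.3 and 16.4 CPM at 12 h, whereas on stiff substrates it rose from 11.7 and 10.1 to 16.1 and 17.4 CPM (log2 fold change 0.63, adjusted p = 0.0021, edgeR). The betaine carrier gene *Slc6a12* fell on stiff substrates from 12 and 31 counts to 3 and 4 counts. *Slc6a15*, which encodes a carrier of branched-chain amino acids, fell on soft substrates from 14.0 and 13.1 to 9.62 and 10.2 CPM (log2 fold change −0.46, adjusted p = 0.0066, edgeR). The call of *Slc6a12*, a log2 fold change of −2.10, was lost without the stiff 0 h replicate 2 (−1.50, adjusted p = 0.14) and without the stiff 12 h replicate 1 (−1.82, adjusted p = 0.070). That of *Slc6a15* was lost without the soft 0 h or 12 h replicate 1 (adjusted p = 0.060 each).

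No tested member of the *Slc36* family, the proton-coupled carriers, was called at 12 h. In the *Slc43* family *Slc43a2*, a facilitative carrier of large neutral amino acids, rose on stiff substrates from 4.68 and 5.79 to 5.83 and 10.3 CPM, a change of 0.59 on the log2 scale (adjusted p = 0.028, edgeR). Without the stiff 12 h replicate 2 this log2 fold change was 0.15 (adjusted p = 0.70) and without the stiff 0 h replicate 1 it was 0.46 (adjusted p = 0.17).

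At 2 h after PD03 removal few members had changed. On soft substrates 1 member rose, against 1.31% of all genes, and 1 fell, against 0.648%, and on stiff substrates 3 rose, against 1.83%, and none fell, against 0.894%. *Slc7a7* was the member that rose on both, to 14.0 and 17.2 CPM on soft and to 21.3 and 20.5 CPM on stiff substrates, and each of these was above both 0 h libraries of its substrate. Log2 fold changes were 0.60 (SE 0.12, adjusted p = 0.0046) and 0.54 (SE 0.11, adjusted p = 0.0026, edgeR). The call on soft substrates was lost without the soft 2 h replicate 2 (0.45, adjusted p = 0.19) or the soft 0 h replicate 2 (0.57, adjusted p = 0.067), and that on stiff substrates without the stiff 0 h replicate 2 (0.46, adjusted p = 0.10). *Slc7a3* rose on stiff substrates to 196 and 192 CPM (log2 fold change 0.26, adjusted p = 0.0015, edgeR, and adjusted p = 0.067 without the stiff 0 h replicate 2). On soft substrates it had 195 and 189 CPM (0.18, adjusted p = 0.055, edgeR). *Slc7a5* rose on stiff substrates to 164 and 158 CPM (log2 fold change 0.24, adjusted p = 0.031, edgeR), a call lost without the stiff 0 h replicate 1 (0.17, adjusted p = 0.40) or either stiff 2 h library (adjusted p = 0.20 and 0.070). The taurine carrier gene *Slc6a6* fell on soft substrates from 222 and 235 to 198 and 198 CPM (log2 fold change −0.21, adjusted p = 0.020, edgeR). This call was lost without the soft 0 h replicate 2 (−0.16, adjusted p = 0.31) or either soft 2 h library (adjusted p = 0.15 each).

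**Figure D3:**
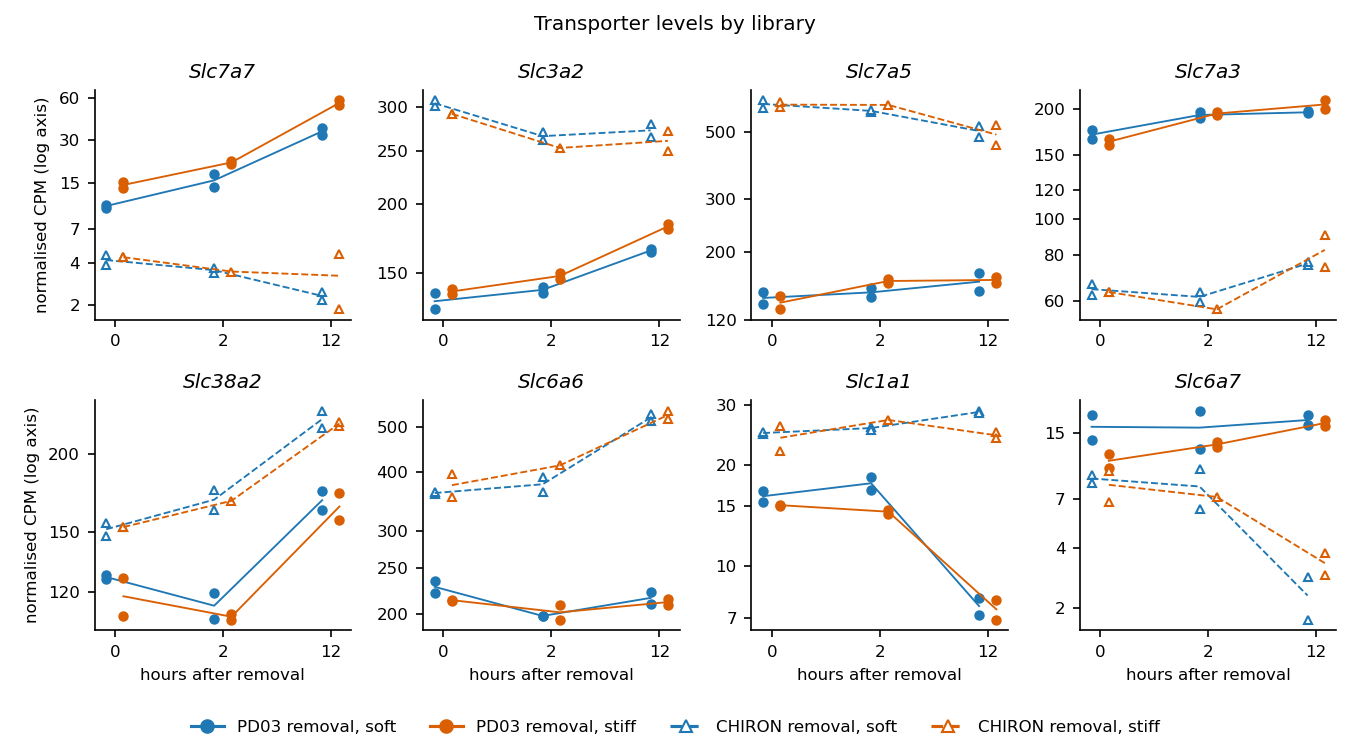
Normalised CPM (log axis, a different range in each panel) of 8 transporter genes at 0, 2 and 12 h; each point is 1 library, lines join group means, filled circles are PD03 removal and open triangles CHIRON removal. *Slc7a7* climbs from between 9.95 and 15.2 to between 33.1 and 57.9 CPM after PD03 removal and stays at or under 4.62 CPM after CHIRON removal.

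The comparison of soft with stiff substrates asked whether stiffness sets the level of a transporter. In PD03 removal 0 of the 36 tested members differed at 0 h, against 0.0298% of all genes, 0 at 2 h, against 0.134%, and 1 at 12 h, against 0.767% (edgeR's quasi-likelihood test). At an unadjusted p under 0.05 these numbers were 2, 6 and 6, against 7.24%, 8.55% and 9.65% of all genes. DESeq2 called 0, 0 and 1, but gave an adjusted p to only 36, 12 and 27 members. The member called was *Slc7a7*, with a soft minus stiff difference of −0.67 on the log2 scale (SE 0.089, adjusted p = 0.00035, edgeR). The call held in all 10 alternatives. At 0 h its difference was −0.49 (SE 0.12, 95% interval −0.74 to −0.25, adjusted p = 0.24), and at 2 h it was −0.43 (SE 0.11, 95% interval −0.66 to −0.20, adjusted p = 0.14, edgeR). The soft libraries were below the stiff libraries at each of the 3 times, and without the filter on low counts both earlier differences were called (adjusted p = 0.040 and 0.045). The heavy chain gene *Slc3a2* had a difference of −0.15 at 12 h (95% interval −0.25 to −0.045, adjusted p = 0.21, edgeR), with its soft libraries below the stiff ones. For *Slc7a5* the difference was −0.02 (95% interval −0.15 to 0.11) and for *Slc38a2* 0.03 (95% interval −0.095 to 0.16). The difference in response between soft and stiff substrates was called for 0 of 36 members at 2 h, against 0.00745% of all genes, and for 0 at 12 h, against 0% (edgeR), with 1 and 3 members at an unadjusted p under 0.05, against 4.51% and 6.69% of all genes, and none by DESeq2. For *Slc7a7* that difference at 12 h was −0.18 (95% interval −0.49 to 0.13), and the intervals of 17 of the 36 members lay within 0.5 of 0.

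After CHIRON removal no member was called at 2 h. On soft substrates 0 of 46 tested members rose or fell at 2 h, against 0.157% and 0.0684% of 14615 genes, and on stiff substrates 0 did, against 0.0547% and 0.0479% (edgeR's quasi-likelihood test). At an unadjusted p under 0.05 these were 8 and 4 members, against 9.09% and 6.97% of all genes, and DESeq2 called 0 and 1, the latter *Slc43a1*, which had 7.27 CPM in the only stiff 2 h library and 14.8 and 12.9 CPM at 0 h. At 12 h changes went both ways, with *Slc6a6* and *Slc38a2* among the rises and *Slc6a7*, *Slc38a7* and *Slc7a5* among the falls. On soft substrates 5 rose, against 9.18% of all genes, and 8 fell, against 8.63%, and on stiff substrates 5 rose, against 8.46%, and 7 fell, against 8.33%. The median log2 fold change of the tested members was −0.10 on soft and −0.24 on stiff substrates, against −0.014 and −0.0085 for all genes. Among the members called on both substrates, *Slc6a6*, *Slc6a16* and *Slc38a2* rose and *Slc1a4*, *Slc6a7*, *Slc6a8*, *Slc7a5*, *Slc38a1* and *Slc38a7* fell. In 10 alternatives for each substrate, all of them without the discarded library, the calls of *Slc6a6*, *Slc6a7*, *Slc38a2* and *Slc38a7* held on both substrates, and on stiff substrates those of *Slc6a16* and *Slc38a1* did as well.

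*Slc6a6*, the taurine carrier gene, rose from 360 and 363 to 531 and 514 CPM on soft and from 355 and 396 to 518 and 540 CPM on stiff substrates. These were log2 fold changes of 0.53 (adjusted p = 0.00011) and 0.49 (adjusted p = 0.00023, edgeR). The proline carrier gene *Slc6a7* fell, from 8.46 and 9.28 to 1.76 and 2.88 CPM on soft and from 9.71 and 6.79 to 3.8 and 2.93 CPM on stiff substrates. Its log2 fold changes were −1.99 (SE 0.27, adjusted p = 4.6e-05) and −1.29 (SE 0.26, adjusted p = 0.0020, edgeR), and no 12 h library overlapped one at 0 h. *Slc6a16* rose from 3.30 and 1.95 to 4.38 and 5.06 CPM on soft and from 1.84 and 2.34 to 5.34 and 4.96 CPM on stiff substrates. Its log2 fold changes were 0.85 (adjusted p = 0.028) and 1.30 (adjusted p = 0.0023, edgeR). The former call was lost without the soft 0 h replicate 2 or either soft 12 h library (adjusted p from 0.060 to 0.30). *Slc6a8* fell from 351 and 342 to 295 and 295 CPM on soft and from 340 and 334 to 275 and 276 CPM on stiff substrates. The log2 fold changes were −0.23 (adjusted p = 0.029) and −0.29 (adjusted p = 0.0085, edgeR). The former call was lost without any 1 of the 4 libraries compared (adjusted p from 0.098 to 0.25) and the latter without either stiff 12 h library (adjusted p = 0.053 and 0.060). *Slc6a15* rose by 0.70 on soft substrates alone (adjusted p = 0.041, edgeR), where leaving out any 1 of the 4 libraries ended the call (adjusted p from 0.064 to 0.20).

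Of the *Slc38* genes, *Slc38a2* rose from 148 and 155 to 235 and 221 CPM on soft and from 152 and 153 to 222 and 226 CPM on stiff substrates. Log2 fold changes were 0.59 (SE 0.074, adjusted p = 1.7e-05) and 0.55 (SE 0.074, adjusted p = 3.4e-05, edgeR). *Slc38a7* fell from 144 and 151 to 108 and 110 CPM on soft and from 139 and 137 to 91.4 and 85.5 CPM on stiff substrates. Its log2 fold changes were −0.44 (adjusted p = 0.00033) and −0.64 (adjusted p = 6.6e-06, edgeR). *Slc38a1* fell from 174 and 189 to 150 and 140 CPM on soft and from 176 and 187 to 144 and 124 CPM on stiff substrates. The changes were −0.32 (adjusted p = 0.014) and −0.44 (adjusted p = 0.0014, edgeR). The call on soft substrates was lost without the 0 h replicate 2 (−0.26, adjusted p = 0.16) or the 12 h replicate 2 (−0.27, adjusted p = 0.10).

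Among the light and heavy chain genes *Slc7a5* and *Slc7a8* were called, both as falls. *Slc7a5* fell from 603 and 637 to 526 and 483 CPM on soft and from 606 and 628 to 529 and 452 CPM on stiff substrates. The log2 fold changes were −0.30 (SE 0.086, adjusted p = 0.022) and −0.33 (SE 0.086, adjusted p = 0.012, edgeR), and without the 12 h replicate 2 they were −0.24 (adjusted p = 0.16) and −0.22 (adjusted p = 0.20). Leaving out either soft 0 h library (adjusted p = 0.095 and 0.17) or the stiff 0 h replicate 2 (adjusted p = 0.064) ended the calls as well. *Slc3a2* had log2 fold changes of −0.16 on each substrate (SE 0.074 and 0.075, adjusted p = 0.15 each) and was not called. *Slc7a7* was low throughout, at 3.84 and 4.55 CPM on soft substrates at 0 h and 2.47 and 2.18 CPM at 12 h, a log2 fold change of −0.84 (SE 0.31, adjusted p = 0.076, edgeR). On stiff substrates it had 4.39 and 4.40 CPM at 0 h and 4.62 and 1.87 CPM at 12 h, a replicate gap larger than the difference between the means (log2 fold change −0.43, adjusted p = 0.38, edgeR). *Slc7a8*, the light chain gene for small and large neutral amino acids, fell on soft substrates from 4.63 and 3.64 to 2.32 and 1.92 CPM (log2 fold change −0.94, adjusted p = 0.033, edgeR), a call lost without any 1 of these 4 libraries (adjusted p from 0.058 to 0.24). *Slc7a6* and *Slc7a11* were not called, with log2 fold changes of −0.01 and 0.33 and of 0.41 and −0.75.

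Among the other members of CHIRON removal, *Slc1a4* fell on both substrates, from 29.6 and 31.2 to 22.7 and 22.5 CPM on soft and from 24.9 and 26.0 to 19.1 and 19.4 CPM on stiff substrates. These were log2 fold changes of −0.43 (adjusted p = 0.0047) and −0.40 (adjusted p = 0.0088, edgeR). Without the soft 0 h replicate 2 the former had an adjusted p of 0.058, and without the stiff 0 h replicate 2 or either stiff 12 h library the latter had adjusted p between 0.052 and 0.069. *Slc7a3* rose on stiff substrates from 63.4 and 63.6 to 90.9 and 74.5 CPM (log2 fold change 0.38, adjusted p = 0.0083, edgeR). Without the stiff 12 h replicate 1 this was 0.23 (adjusted p = 0.17), and on soft substrates the change was 0.23 (adjusted p = 0.10, edgeR). *Slc43a1*, a carrier of branched-chain amino acids, fell on soft substrates by 0.56 on the log2 scale (adjusted p = 0.015, edgeR), a call lost without the soft 12 h replicate 1 (−0.36, adjusted p = 0.21) or either soft 0 h library (adjusted p = 0.11 and 0.066). The lysosomal proton-coupled carrier gene *Slc36a1* fell on stiff substrates by 0.27 on the log2 scale (adjusted p = 0.038, edgeR), a call lost in 9 of the 10 alternatives. *Slc1a1*, *Slc1a3* and *Slc1a5* were not called on either substrate, with log2 fold changes from −0.46 to 0.21.

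Between soft and stiff substrates of CHIRON removal 0 of the 46 tested members were called at 0 h, 2 h or 12 h, against 0% of all genes at each time (edgeR's quasi-likelihood test). At an unadjusted p under 0.05 these were 3, 2 and 6 members, against 3.48%, 5.73% and 3.22% of all genes, and DESeq2 called 0 at each time. The difference in response between substrates was likewise called for 0 members at 2 h and at 12 h, against 0% of all genes, with 4 and 1 members at an unadjusted p under 0.05, against 3.09% and 2.84% of all genes, and 0 by DESeq2. These counts do not show equal levels: the 95% intervals of 18 of the 46 members lay within 0.5 of 0 at 12 h, and those of the others reached further. For *Slc7a7* the difference at 12 h was −0.47 (95% interval −1.16 to 0.22), an interval that contains the −0.67 of PD03 removal.

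The 2 removals were then compared by the difference of their responses, averaged over substrates, in a joint fit. Each removal was its own experiment with its own 0 h libraries, so effects of the inhibitor and of the experiment cannot be told apart. The joint fit shared its estimates of spread between the experiments, with a biological coefficient of variation of 0.0605. This lies between the values of the separate fits. At 12 h the response differed for 18 of 46 tested members, against 36.1% of all 14764 genes, and was higher after PD03 removal for 14 of them, against 18.6%, and lower for 4, against 17.5% (edgeR's quasi-likelihood test). The largest was that of *Slc7a7*, with a mean log2 fold change of 1.87 after PD03 removal and −0.63 after CHIRON removal, a difference of 2.49 (SE 0.21, adjusted p = 2.2e-10, edgeR). *Slc6a7* differed by 2.02 (0.37 against −1.64, adjusted p = 8.9e-08), *Slc38a8* by 1.54 (1.06 against −0.49, adjusted p = 9.7e-05) and *Slc1a3* by 0.91 (0.63 against −0.28, adjusted p = 0.00065, edgeR). The heavy chain gene *Slc3a2* and its light chain gene *Slc7a5* differed by 0.51 and 0.53 (adjusted p = 1.3e-07 and 5.7e-06, edgeR), each with a positive mean after PD03 removal and a negative one after CHIRON removal. *Slc1a1* differed by −1.18 (−1.05 against 0.12, adjusted p = 4.1e-09) and *Slc6a6* by −0.56 (−0.04 against 0.52, adjusted p = 8.0e-08, edgeR). For 15 of the 18 the call held in all 22 alternatives without the discarded library, the exceptions being *Slc38a3*, *Slc38a9* and *Slc43a1*, whose calls were lost without single libraries (adjusted p up to 0.14, 0.13 and 0.076).

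**Figure D4:**
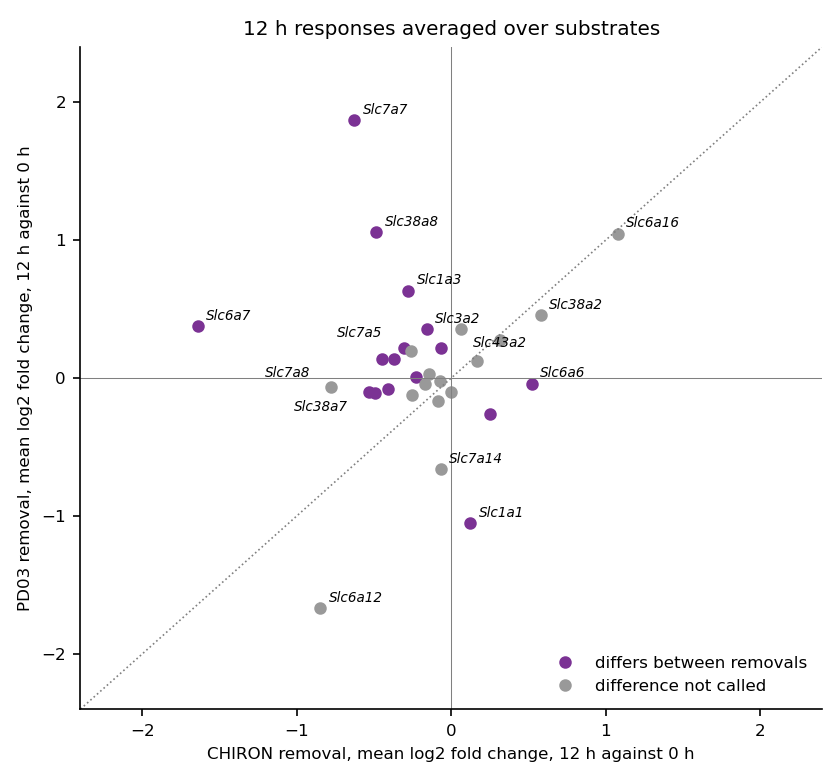
Mean log2 fold change at 12 h over both substrates after CHIRON removal (x axis) and PD03 removal (y axis) for 31 tested members with a mean of at least 2 CPM in either experiment; purple points passed an adjusted p of 0.05 for the difference, grey points did not, and the dotted line marks equal responses. *Slc7a7*, at −0.63 and 1.87, lies farthest above the line, and *Slc6a16* and *Slc38a2* lie near it in the upper right.

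Some members moved the same way after either removal. Counting a call on any substrate at 12 h, 4 members rose after both removals (among them *Slc6a16*, *Slc7a3* and *Slc38a2*) and 2 fell after both (*Slc6a8* and *Slc38a7*). A further 3 rose after PD03 removal and fell after CHIRON removal (*Slc6a7*, *Slc7a5* and *Slc38a1*), and *Slc6a15* did the reverse. Of the 13160 genes tested in both experiments, 35 of them members, 3.49% rose after both removals, 3.52% fell after both, 3.35% rose after PD03 removal and fell after CHIRON removal, and 3.29% did the reverse. The responses did not pass the threshold for a difference for *Slc38a2* (difference −0.13, 95% interval −0.27 to 0.021, adjusted p = 0.18, edgeR), *Slc7a3* (−0.04, 95% interval −0.19 to 0.11) or *Slc6a16* (−0.03, 95% interval −0.50 to 0.43). At 2 h the response differed for 6 of 46 members, against 3.49% of all genes, higher after PD03 removal for *Slc3a2*, *Slc7a3*, *Slc7a7* and *Slc43a1*, against 1.66%, and lower for *Slc6a6* and *Slc38a2*, against 1.84%. All of them rest in part on the only stiff 2 h library of CHIRON removal. Without it, on soft substrates alone, the difference was called for 0 of 40 tested members, against 0.893% of all genes (edgeR). The difference of *Slc3a2* was 0.29 (0.078 against −0.21, adjusted p = 0.0093) and 0.30 on soft substrates alone (adjusted p = 0.11, edgeR). That of *Slc43a1* was 0.62 (−0.0054 against −0.62, adjusted p = 0.0092) and 0.44 on soft substrates alone (adjusted p = 0.31, edgeR), and its 2 h change after CHIRON removal was −0.30 on soft substrates and −0.93 on stiff substrates with that library. The difference of *Slc7a7*, 0.86 (adjusted p = 0.026, edgeR), was lost without any of 5 other single libraries (adjusted p up to 0.068), and that of *Slc7a3*, 0.33 (adjusted p = 0.015, edgeR), without the PD03 removal soft 0 h replicate 1 (adjusted p = 0.052). Those of *Slc6a6* (−0.24, adjusted p = 0.041) and *Slc38a2* (−0.28, adjusted p = 0.039, edgeR) were lost in 15 and 16 of 21 alternatives without the discarded library.

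The members under the filter on low counts were 23 in PD03 removal, with at most 12 counts in a library, and 14 in CHIRON removal, with at most 10. *Slc7a10* and *Slc38a11* had no count in any library of PD03 removal, which allows up to 3 counts over all libraries, or 0.0125 CPM, and *Slc7a12* had none in CHIRON removal, which allows up to 0.0113 CPM (counting error only). The untested members included the carriers of noradrenaline and dopamine (*Slc6a2* and *Slc6a3*) in both experiments, the kidney and gut carrier gene *Slc6a19* and the heavy chain gene *Slc3a1*.

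The other genes of amino acid supply were counted from lists of 21 amino acid response genes (targets of the transcription factor ATF4 among them), 20 cytosolic aminoacyl-tRNA synthetase genes, 26 genes of amino acid metabolism and 28 genes of amino acid sensing by mTORC1, all of which were tested. At 12 h of PD03 removal 14.1% of all genes rose and 15.3% fell on soft substrates, and 18.5% rose and 19.9% fell on stiff substrates. After PD03 removal 2 response genes rose and 2 fell on soft substrates, and 2 rose and 3 fell on stiff substrates, with medians of 0.01 and −0.05. *Atf4* fell by 0.24 and 0.25 on the log2 scale (adjusted p = 0.00012 and 5.9e-05, edgeR), and *Shmt2*, which makes one-carbon units from serine in mitochondria, rose by 0.26 and 0.31. Among the synthetase genes 3 rose and 3 fell on soft substrates and 1 rose and 7 fell on stiff substrates, with *Vars* at 0.31 and 0.42 and *Dars* at −0.31 and −0.40. Of the metabolism genes 2 rose and 6 fell on soft and 3 rose and 11 fell on stiff substrates, among them *Glul*, which makes glutamine, at 0.35 and 0.47 and *Ass1*, of arginine synthesis, at −0.36 and −0.46. Of the mTORC1 genes 4 rose and 4 fell on soft and 6 rose and 7 fell on stiff substrates, with *Sesn3*, a negative regulator, at −0.31 and −0.61.

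After CHIRON removal each of the same lists had more falls than rises at 12 h, where 9.18% of all genes rose and 8.63% fell on soft substrates and 8.46% rose and 8.33% fell on stiff substrates. Among the response genes 1 rose and 4 fell on soft and 2 rose and 7 fell on stiff substrates, and *Asns*, which makes asparagine, had log2 fold changes of −0.83 and −0.89 (SE 0.078, adjusted p = 7.3e-07 and 3.3e-07, edgeR). *Atf4* itself was at 0.16 and 0.04 and was not called. No synthetase gene rose, and 5 fell on soft and 9 on stiff substrates, with *Wars* at −0.29 and −0.28. No metabolism gene rose, and 8 fell on soft and 9 on stiff substrates, led by *Tdh*, the threonine dehydrogenase of naïve mESCs, at −1.08 and −1.14 (adjusted p = 9.4e-09 and 7.3e-09, edgeR) and by *Bcat1*, the first enzyme of branched-chain amino acid breakdown, at −0.73 and −0.78. *Glul* was at −0.35 and −0.29, opposite in sign to its change after PD03 removal. Of the mTORC1 genes 1 rose and 6 fell on soft and 0 rose and 6 fell on stiff substrates, with the GTPase gene *Rragd* at −0.86 and −0.93. At 2 h no list had more than 1 call in either direction on a substrate in either experiment.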

How the data were processed

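RNA-seq counts of E14 mESCs were analysed as deposited. The authors trimmed reads with Trim Galore, aligned them to mm10 with TopHat2 2.1.0 and counted reads per gene with featureCounts 1.5.0, and the deposited values are whole-number counts per gene without normalisation (processing notes and the study's methods). The strand setting was not given in the sources used here. In the table of PD03 removal, 12 columns of other samples and 23 empty lines were not used. A further 15 identifiers that look like dates were left as they stood and are among its 35022 genes. Libraries were grouped by their titles.

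The members and gene lists were chosen with earlier results of these data known. Protein-coding genes (GENCODE M21) passing filterByExpr (minimum count 10, minimum total 15) were normalised by TMM and tested with edgeR 4.0.16 (R 4.3.3, limma 3.58.1) by its quasi-likelihood test with Benjamini-Hochberg adjustment over all tested genes, threshold 0.05. A single model held the 6 groups of an experiment, and a joint model held both. Intervals are 95% intervals of these fits. FPKM divided normalised CPM by the exon length in GENCODE M21. Tests were checked on simulated data. Python 3.11.15 with pandas 2.3.3, numpy 2.4.6 and matplotlib 3.10.9 made tables and figures.

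The text names 8 members always, those called at 12 h on both substrates, at 2 h or between substrates, and of each other list the genes with the smallest adjusted p at 12 h. Members called at 12 h on 1 substrate only, *Atf4* and *Glul* after CHIRON removal, untested members and the other members given by values were named after their values were seen. Samples with the same replicate number did not deviate together, with correlations between −0.052 and 0.11 in PD03 removal and between −0.11 and 0.071 in CHIRON removal. Alternatives were DESeq2 1.42.0, its size factors in edgeR, no filter on low counts, all genes, only the groups compared, the replicate number as a block, the discarded library included, and each library left out. No protein sequences were used here. The values of 1 member are not reported here, and the counts include it.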

Additional observations from a re-analysis of the deposited data

How the results depend on the processing

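Most counts of called members stayed within 1.5 times of those reported, but many of these were counts of 0 that stayed at 0. Without the filter on low counts, soft against stiff substrates in PD03 removal gave 2 members at 0 h (*Slc7a7* and *Slc6a7*), 1 at 2 h (*Slc7a7*) and 2 at 12 h (*Slc7a7* and *Slc36a1*), and CHIRON removal on stiff substrates at 2 h gave 1. DESeq2 also gave 1 there, and a fit of only the groups compared gave 2 for soft against stiff substrates at 12 h of PD03 removal. With the discarded library included, CHIRON removal at 12 h gave 2 members on each substrate, and the difference between the removals gave 9 at 12 h and 1 at 2 h. With it the 2 h difference of *Slc6a6* turned to 0.11 (adjusted p = 0.97, edgeR). The cause was not tested. On soft substrates alone, an alternative chosen after seeing the data that leaves out the only stiff 2 h library of CHIRON removal, the 2 h difference between the removals gave 0 members and all 6 calls were lost (adjusted p from 0.11 to 0.31, edgeR). Leaving out 1 library at a time gave 9 to 12 members at 12 h on soft and 11 to 14 on stiff substrates of PD03 removal, 0 to 2 and 1 to 2 at 2 h, 5 to 9 and 9 to 12 at 12 h of CHIRON removal, and 16 to 19 at 12 h and 3 to 5 at 2 h between the removals. With the replicate number as a block, 16 members on soft and 17 on stiff substrates were called at 12 h of PD03 removal, 12 and 11 in CHIRON removal, and 18 at 12 h and 4 at 2 h between the removals. Of 87 single calls 4 were lost under the block, namely *Slc36a1* on stiff (adjusted p = 0.058) and *Slc6a8* on soft substrates of CHIRON removal (adjusted p = 0.054), and the 2 h differences of *Slc6a6* (adjusted p = 0.067) and *Slc7a7* (adjusted p = 0.056, edgeR). DESeq2 lost 10 single calls, all genes 13, only the groups compared 6, and its size factors and no filter 4 each. With the discarded library included 34 single calls were lost, 1 changed sign and 14 were kept. Leaving out single libraries ended many further calls, as described above for each member. With 2 libraries a group, leaving 1 out leaves a lone library that is assumed to vary like the other groups. Levels under about 1 CPM gave standard errors too wide to show changes of the size seen in abundant members.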

Other observations

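*Slc7a9*, which encodes the light chain that pairs with the heavy chain of *Slc3a1*, was low and was called in no comparison. It had 1.32 and 1.14 CPM on soft substrates at 0 h and 0.756 and 0.391 CPM at 12 h of PD03 removal. The change was −1.11 on the log2 scale (adjusted p = 0.066, edgeR's quasi-likelihood test). On stiff substrates it had 0.909 and 0.687 CPM and then 0.360 and 0.495 CPM, a change of −0.88 (adjusted p = 0.21, edgeR). The soft and the stiff libraries at 12 h were each below those at 0 h.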
